A study of Mus musculus with 12 samples.

Results

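Receptors for monoamines, opioids and neuropeptides were followed through the postnatal wiring of the mouse cortex, in sorted interneurons and in sorted pyramidal cells. The 38 genes listed were G protein-coupled receptors of neuromodulators, chosen by symbol, and 33 of them had a probe set annotated to that gene alone, out of 22961 probe sets with a gene symbol (19937 genes matched singly). Adra1a, Adra1d, Adra2a, Adrb1 and Adora1 had no such match and were not analysed here. The 33 measured genes comprised 9 serotonin, 4 dopamine, 2 adrenergic, 4 opioid, 4 somatostatin and 3 neuropeptide Y receptors, with 5 receptors for other peptides, the CB1 cannabinoid receptor and the H3 histamine receptor.

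Interneurons (IN) were GFP+ cells sorted from the cortices of Nkx2-1Cre;RCE mice at P10 and P0, and pyramidal cells (Pyr) were GFP+ cells sorted from the somatosensory cortices of NexCre;RCE mice at P12 and P0, all on a C57BL6 background and with no treatment named. RCE is a reporter allele that makes GFP after Cre recombination, so that every group carried both a Cre and the reporter. RNA of each sort was hybridized to a mouse gene array, on 3 arrays for each group (biological replicates A to C in the labels), and the labels do not say how many animals stood behind an array, so p-values measure the spread between arrays. A value is a log2 signal after robust multi-array averaging (RMA), so that a difference of 1 is a change of 2-fold, and a gene was called higher or lower where the fold change was over 2 and the Benjamini-Hochberg adjusted p of limma was under 0.05. The area dissected differed between IN and Pyr at both ages, so that area and cell type were mixed in every comparison of them. This includes the comparison of their changes with age. IN P10 and Pyr P12 were also not of the same age, which was a further difference between the older groups.

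Neuromodulator receptors pass signals from diffuse fibres and from peptides released by local neurons to heterotrimeric G proteins. Receptors coupled to Gi/o lower cyclic AMP, open inwardly rectifying potassium channels and restrain transmitter release, those coupled to Gs raise cyclic AMP, and those coupled to Gq/11 activate phospholipase C and usually depolarize the cell. In the cortex, opioid, somatostatin, neuropeptide Y and CB1 receptors are known as brakes on firing or release, and the tachykinin, cholecystokinin B and 5-HT2A receptors as excitatory ones.

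The sorts carried the markers of their labels, beside markers of other cells. All 7 pan-interneuron genes measured were higher in IN than in Pyr at both ages, and among 13 genes of pyramidal cells, IN was the lower for 10 at the older age and for 9 at P0. Nkx2-1 acts in progenitors of the medial ganglionic eminence and its neighbours. Of 9 genes measured for interneurons of the medial eminence, 7 were higher in IN than in Pyr at the older age and 8 at P0. Of 10 genes listed for interneurons of the caudal eminence, 8 were above background on some array of the 12, and Vip was on none. By group, 5 were above it in IN P10, 6 in IN P0, 5 in Pyr P12 and 8 in Pyr P0. With age in IN, 3 of the 10 were higher (Calb2, Lamp5 and Cck). In IN P10 against Pyr P12 Calb2 was higher (1.99) and Lamp5 and Cck were lower (-3.15 and -1.28). The mean of the markers of the other population was lower at the older age. The mean of the 7 pan-interneuron genes in Pyr lay between 7.68 and 7.81 at P12, against 8.73 and 9.21 at P0, and 5 of them fell. The mean of the 13 pyramidal genes in IN lay between 8.64 and 8.67 at P10, against 9.18 and 9.60 at P0. At P0 replicate B was the highest and the others were at 9.18 and 9.19. Of these genes 4 were called lower at P10 than at P0 and 2 higher. The 2 were Camk2a (group means 11.44 at P10 and 9.32 at P0) and Nrgn (11.30 and 9.01). The part of these RNAs in the changes with age was not tested. Genes of oligodendrocyte precursors, which Nkx2-1 progenitors can also generate, were higher in IN for 9 of 10 genes at the older age and 8 of 10 at P0. The mean of that list lay between 9.91 and 10.51 in IN P10, 10.07 and 10.31 in IN P0, 7.96 and 8.07 in Pyr P12, and 8.17 and 8.46 in Pyr P0. Myelin genes followed with 4 of 10 higher in IN P10 relative to Pyr P12 (list means 8.55 to 8.85 against 7.53 to 7.64). In sorted bulk RNA a change in the share of cells that use a receptor and a change in the RNA of each cell cannot be told apart.

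The background of each array was taken as the 95th percentile of the probe sets for olfactory and vomeronasal receptors, 7.14 to 7.46 across the 12 arrays. At least 1 array was above it for 29 of the 33 receptors in IN P10, 26 in IN P0, 31 in Pyr P12 and 24 in Pyr P0. Over all probe sets the same share was 69.9%, 69.8%, 69.1% and 70.2% in these groups. The highest of the 4 group means was found in Pyr P12 for 16 receptors, in IN P10 for 13, in Pyr P0 for 3 and in IN P0 for 1.

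**Figure D1:**
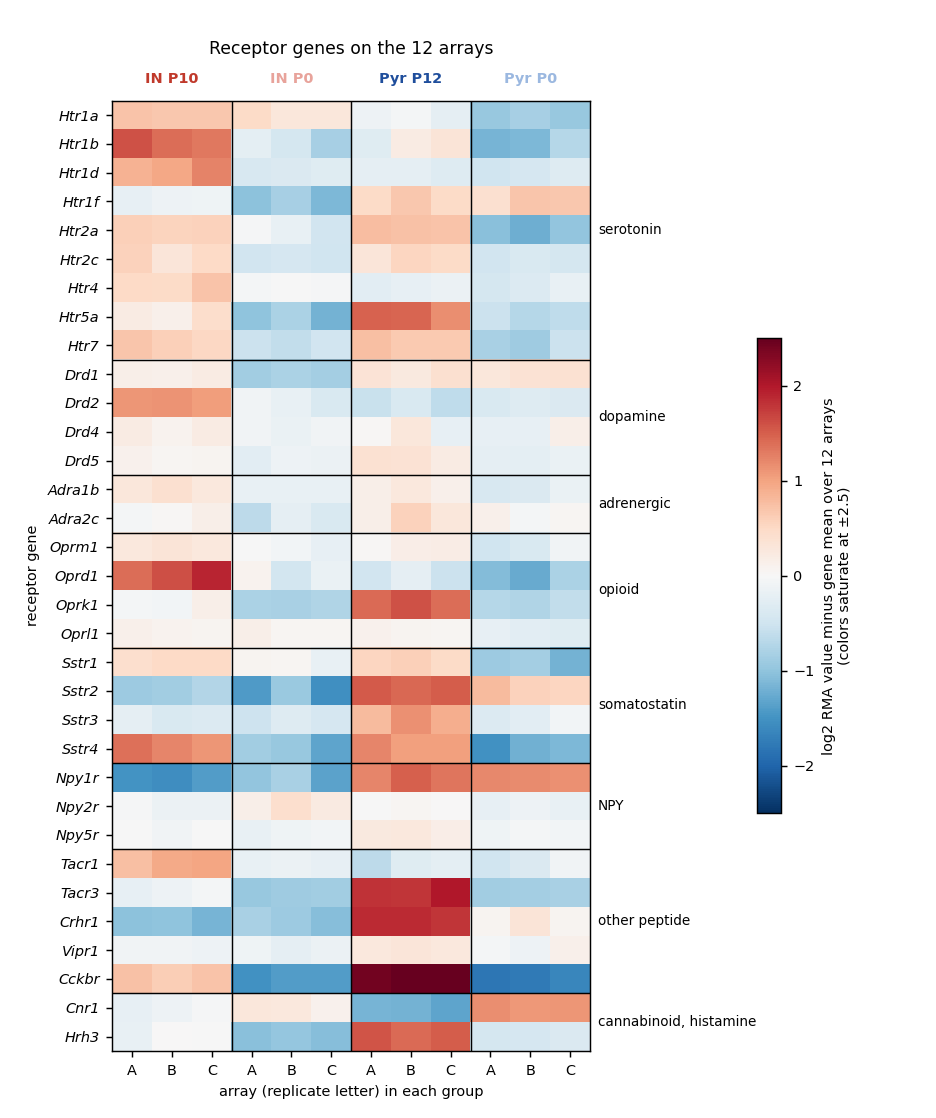
Log2 RMA value of each of the 33 receptor genes on each of the 12 arrays (columns, replicates A to C in each group), as the difference from that gene's mean over all arrays and with families set apart by lines. Warm colors gather in the IN P10 and Pyr P12 columns, which hold the highest group mean of 13 and 16 receptors, and Cnr1 stands out by its high values in Pyr P0.

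Receptors that changed with age were mostly higher at the older age, in both populations. In IN P10 against IN P0, 10 of 33 were called higher (30.3%), where 4.19% of all tested probe sets were, and 0 were called lower, where 2.85% of all were. In Pyr P12 against Pyr P0, 12 were higher (36.4%, background 5.68%) and 1 was lower (3.03%, background 3.48%). The median log2 fold change of the 33 was 0.59 in IN and 0.53 in Pyr, beside 0.00 and 0.06 over all tested probe sets. For the absence of lower calls in IN, limma at an unadjusted p under 0.05 gave 3 lower receptors, Npy1r, Npy2r and Cnr1, all changed by less than 0.5, and significance analysis of microarrays (SAM), the test named in the methods, also gave 0. In all, 17 receptors were higher with age in at least 1 population, 5 of them in both.

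The change with age differed between the populations for 13 receptors, tested as the change in IN minus the change in Pyr. The change ran from P0 to P10 in IN and from P0 to P12 in Pyr. A difference between populations and one from the longer interval in Pyr cannot be told apart here. Counted with its sign, the change was larger in IN for 6 (18.2%, background 2.24%) and smaller in IN for 7 (21.2%, background 2.63%). By these tests and the calls in each population, Oprd1, Drd2, Htr1d, Tacr1 and Drd1 were higher in the older interneurons without a call in pyramidal cells, and Tacr3, Oprk1, Crhr1, Htr2a, Sstr1 and Sstr3 were higher in the older pyramidal cells without a call in interneurons. Some of these missed a call by the fold threshold alone, with a limma adjusted p under 0.05. They were Htr2a (0.80), Oprk1 (0.79, below background at both ages), Tacr3 (0.77) and Sstr1 (0.49) in IN, and Oprd1 (0.63) in Pyr. Cckbr was called in both, with the larger change in Pyr. Cnr1 was the 1 receptor called lower with age in Pyr (-2.34). It stands among the 6 because its change in IN was less negative (-0.34, not called). Htr1d and Oprk1 each had 3 groups with no array above background. With every value below background raised to that level, a choice made after seeing the data, the difference of Htr1d was no longer called (0.82) and that of Oprk1 still was (-1.18). Of the 13 differences, 4 lay close to 2-fold and lost their call without some arrays. These were Drd1 without IN P10 replicate C (0.998) or Pyr P12 B (0.98), Sstr3 without Pyr P12 B (-0.97), Htr2a without IN P0 A (-0.91), IN P0 B (-0.99), Pyr P0 B (-0.94) or Pyr P12 A (-0.996), and Sstr1 without IN P0 A (-0.98), IN P0 B (-0.99), IN P10 A (-0.997), Pyr P0 C (-0.92) or Pyr P12 B (-0.99).

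**Figure D2:**
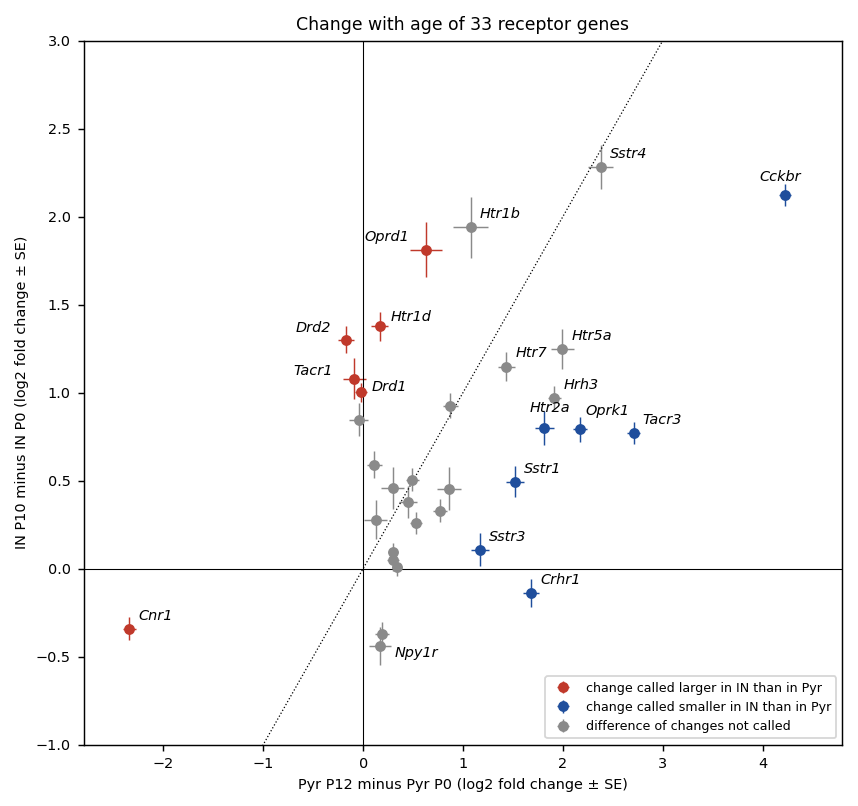
Log2 fold change with age of the 33 receptors in pyramidal cells (horizontal) and in interneurons (vertical), each with its standard error from limma, colored by the test of the difference between the changes, and with the dotted line marking equal change. Counted with its sign, the change is larger in IN for the 6 red points and smaller in IN for the 7 blue points. The red points include Oprd1, at 1.81 in IN and 0.63 in Pyr, and Cnr1, at -0.34 in IN and -2.34 in Pyr. Cckbr lies farthest to the right at 4.22.

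Stretches upstream of 4 of these genes are printed because the promoters of receptors with a shared pattern differed in their CG content. Oprd1 and Tacr1 were higher in the older interneurons, and Crhr1 and Tacr3 in the older pyramidal cells. Each is the 250 bases before the annotated start of the gene in RefSeq on GRCm38.p6, read 5′ to 3′ along the gene's strand, with CG dinucleotides in capitals.
Oprd1, chr4:132144487-132144736, minus strand: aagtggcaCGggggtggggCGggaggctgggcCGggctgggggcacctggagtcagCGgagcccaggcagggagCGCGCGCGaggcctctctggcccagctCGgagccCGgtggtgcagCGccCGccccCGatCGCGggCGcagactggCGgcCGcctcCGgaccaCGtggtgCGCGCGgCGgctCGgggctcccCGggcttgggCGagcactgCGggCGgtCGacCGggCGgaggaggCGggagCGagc
Tacr1, chr6:82402225-82402474, plus strand: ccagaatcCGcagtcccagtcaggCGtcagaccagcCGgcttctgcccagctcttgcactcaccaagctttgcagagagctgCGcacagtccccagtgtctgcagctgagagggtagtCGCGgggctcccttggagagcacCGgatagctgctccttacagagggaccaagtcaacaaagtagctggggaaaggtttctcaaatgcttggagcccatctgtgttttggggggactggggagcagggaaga
Crhr1, chr11:104132531-104132780, plus strand: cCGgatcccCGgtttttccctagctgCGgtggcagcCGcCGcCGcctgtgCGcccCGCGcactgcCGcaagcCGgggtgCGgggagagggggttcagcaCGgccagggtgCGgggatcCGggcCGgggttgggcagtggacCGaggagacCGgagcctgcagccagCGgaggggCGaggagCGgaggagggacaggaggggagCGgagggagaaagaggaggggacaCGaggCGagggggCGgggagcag
Tacr3, chr3:134828757-134829006, plus strand: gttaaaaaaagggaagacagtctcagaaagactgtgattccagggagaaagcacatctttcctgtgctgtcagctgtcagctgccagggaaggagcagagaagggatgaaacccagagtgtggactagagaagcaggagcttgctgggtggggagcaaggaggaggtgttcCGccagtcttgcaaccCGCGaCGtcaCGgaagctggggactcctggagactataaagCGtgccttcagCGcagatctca
Oprd1 held 34 CG dinucleotides and Tacr1 held 7, and on the pyramidal side Crhr1 held 25 and Tacr3 held 7. The median was 8 over the 40 windows of the 30 receptors with a promoter entry, and 6 over all 32851 windows. The letters TGACG, the core of a cyclic AMP response element, were searched on both strands (they contain a CG) and were present once each for Tacr1 and Tacr3 and not for Oprd1 or Crhr1. They occurred in 15% of the receptors' windows and in 17.8% of all windows. These 4 genes were chosen after their values were seen.

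**Figure D3:**
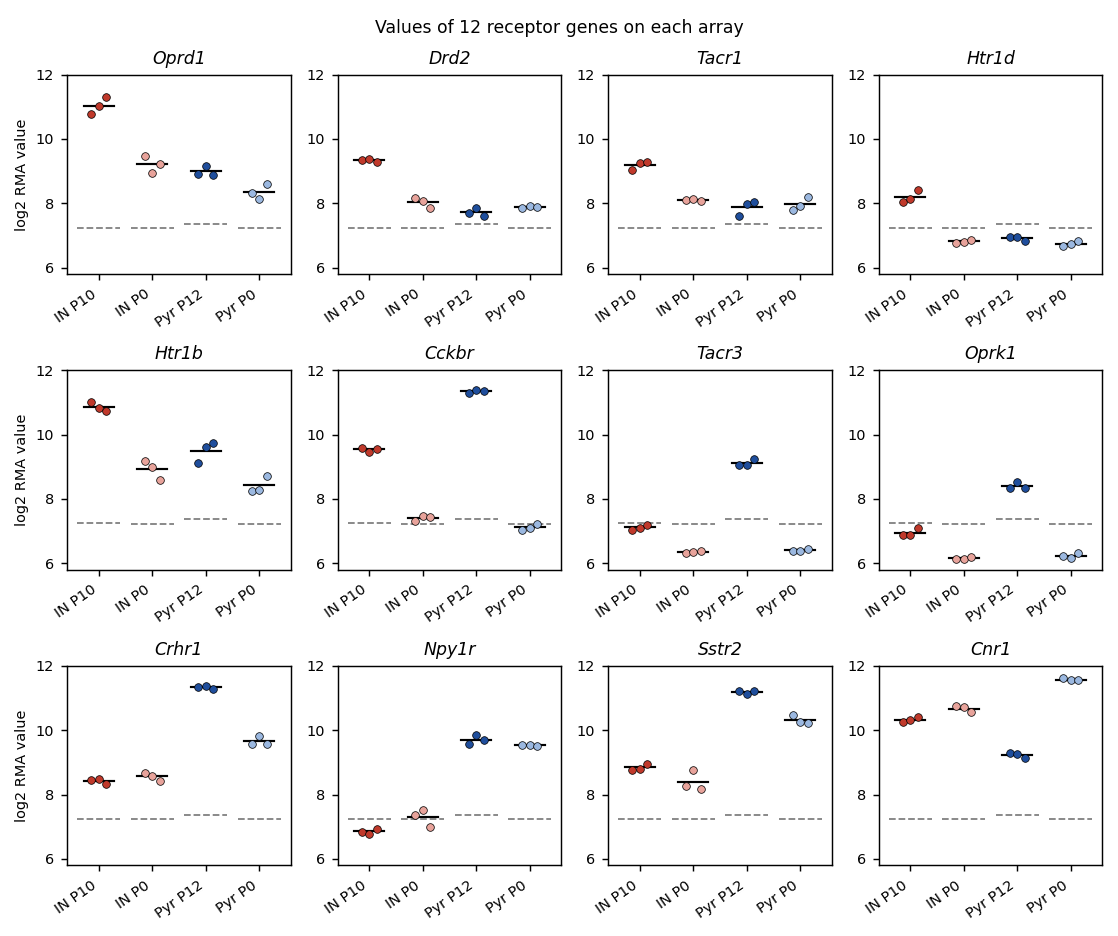
Log2 RMA values of 12 receptors on each array (points), with group means (solid bars) and the mean background level of the group's arrays (dashed bars). The top row and Htr1b have their highest values in IN P10, Cckbr, Tacr3, Oprk1, Crhr1 and Sstr2 in Pyr P12, and Npy1r stays near background in IN at both ages.

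Of the opioid receptors, the δ receptor was higher in interneurons and the κ receptor higher in pyramidal cells at the older age. Oprd1, the δ receptor through which enkephalins act, had 10.79, 11.01 and 11.31 in IN P10, against 9.48, 8.95 and 9.23 in IN P0. In Pyr it had 8.92, 9.18 and 8.87 at P12, against 8.32, 8.15 and 8.62 at P0. The 3 IN P10 arrays stood above all 9 others, and all 12 arrays were above background. The change in IN was 1.81 (SE 0.16, adjusted p = 3.9e-07) and the difference of IN P10 from Pyr P12 was 2.04 (SE 0.16, adjusted p = 1.65e-07), the largest of the 6 higher receptors.

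Oprk1, the κ receptor for dynorphins, ran the other way. It read 8.36, 8.54 and 8.34 in Pyr P12, against 6.23, 6.18 and 6.32 in Pyr P0, and 6.88, 6.87 and 7.09 in IN P10, against 6.14, 6.14 and 6.19 in IN P0. Pyr P12 was the only group with an array above background, which makes the receptor at least 2.27-fold higher there than in Pyr P0 (fitted log2 fold change 2.17, SE 0.07, adjusted p = 2.64e-11) and at least 2.26-fold lower in IN P10 relative to Pyr P12 (fitted log2 fold change -1.47, SE 0.07, adjusted p = 1.82e-09). Oprm1, the μ receptor, and Oprl1, the nociceptin receptor, were above background on all arrays and were not called in any comparison. Oprm1 averaged 8.40 ± 0.04 in IN P10, 8.03 ± 0.09 in IN P0, 8.25 ± 0.08 in Pyr P12 and 7.80 ± 0.21 in Pyr P0 (SD, n = 3 each), and Oprl1 spanned 10.16 to 10.61 over the 12 arrays.

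Penk and Pdyn, precursor genes named because their receptors are described here and after their values were seen, were higher in the older interneurons. Penk, the enkephalin precursor, averaged 10.68 ± 0.19 in IN P10, 7.80 ± 0.04 in IN P0, 8.75 ± 0.04 in Pyr P12 and 8.02 ± 0.08 in Pyr P0. Pdyn, the dynorphin precursor, averaged 9.98 ± 0.18 in IN P10, 7.39 ± 0.11 in IN P0, 7.86 ± 0.13 in Pyr P12 and 7.39 ± 0.16 in Pyr P0. Both differed between IN P10 and Pyr P12, Penk by 1.93 (adjusted p = 3.91e-10) and Pdyn by 2.12 (adjusted p = 1.44e-09). Pomc, which encodes the β-endorphin precursor, was not called, with 7.77 ± 0.12 in IN P10, 7.64 ± 0.07 in IN P0, 7.87 ± 0.15 in Pyr P12 and 7.62 ± 0.11 in Pyr P0. At the older age Penk and Oprd1 were thus both higher in interneurons, whereas Pdyn was higher in interneurons and Oprk1 in pyramidal cells.

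The tachykinin receptors also divided between the populations. Tacr1, the NK1 receptor for substance P, gave 9.05, 9.24 and 9.27 in IN P10, against 8.10, 8.14 and 8.08 in IN P0. Pyramidal cells gave 7.62, 7.99 and 8.05 at P12, against 7.80, 7.93 and 8.20 at P0, and these overlapped. Its change in IN was 1.08 (SE 0.11, adjusted p = 2.84e-06), and the difference of IN P10 from Pyr P12 was 1.30 (SE 0.11, adjusted p = 6.78e-07). Tacr3, the NK3 receptor for neurokinin B, had 9.06, 9.05 and 9.25 in Pyr P12, against 6.38, 6.39 and 6.45 in Pyr P0, none of which was above background. That was at least 3.69-fold higher in Pyr P12 (fitted log2 fold change 2.71, SE 0.06, adjusted p = 1.59e-12). In interneurons Tacr3 read 7.04, 7.11 and 7.21 at P10, against 6.31, 6.35 and 6.39 at P0, with 1 array above background, and the difference of IN P10 from Pyr P12 was -1.996 (SE 0.06, adjusted p = 3.04e-11). Tac1, the substance P precursor, changed by 4.17 with age in IN (adjusted p = 6.09e-11), and in IN P10 it was at least 23.9-fold above its level in Pyr P12, where no array was above background (adjusted p = 1.88e-12). Tac2, the neurokinin B precursor, was above background on 2 arrays of IN P10 and on no other array.

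Cckbr, the cholecystokinin B receptor, had the largest change of the 33. Its values were 11.27, 11.40 and 11.36 in Pyr P12, against 7.05, 7.09 and 7.22 in Pyr P0, and no P0 array of Pyr was above background. The gene was thus at least 17.3-fold higher in Pyr P12 (fitted log2 fold change 4.22, SE 0.06, adjusted p = 4.21e-14). Interneurons had 9.59, 9.46 and 9.56 at P10, against 7.33, 7.46 and 7.46 at P0, a change of 2.12 (SE 0.06, adjusted p = 2.69e-11). At P0 the populations differed by 0.30, which was not called, and at the older age IN P10 was lower than Pyr P12 (-1.80, SE 0.06, adjusted p = 7.41e-11). The change in IN minus that in Pyr was -2.10 (SE 0.09, adjusted p = 2.54e-09). Cck, the peptide's gene, changed by 2.05 in IN and 2.03 in Pyr, with a difference of 0.02 between the changes (adjusted p = 0.931).

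Crhr1, the receptor for corticotropin-releasing hormone, was higher in pyramidal cells at both ages and parted further with age. It measured 8.46, 8.48 and 8.34 in IN P10, against 8.67, 8.59 and 8.43 in IN P0, which overlapped. Pyramidal cells held 11.35, 11.36 and 11.29 at P12, against 9.57, 9.81 and 9.56 at P0, a change of 1.68 (SE 0.08, adjusted p = 5.99e-10). The difference between IN and Pyr was -2.90 at the older age (SE 0.08, adjusted p = 6.01e-12), the largest of all members, and -1.08 at P0 (SE 0.08, adjusted p = 1.5e-07). These differed by -1.82 (SE 0.11, adjusted p = 5.49e-08). The call at P0 was lost without Pyr P0 replicate B, where the difference fell just short of 2-fold (-0.9996). Crhbp, which encodes the protein that binds and neutralizes the hormone, in IN P10 exceeded its level in Pyr P12 at least 14.7-fold (adjusted p = 6.46e-12), while Crh itself was above background on 1 array of IN P10 and on no other.

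Vipr1, a receptor for vasoactive intestinal peptide and PACAP, had 2 probe sets that disagreed. The one with the higher mean, which stands for the gene here, averaged 8.15 ± 0.02 in IN P10, 8.10 ± 0.05 in IN P0, 8.54 ± 0.03 in Pyr P12 and 8.24 ± 0.14 in Pyr P0, and was not called. The other averaged 7.41 ± 0.05 in IN P10, 7.48 ± 0.10 in IN P0, 10.18 ± 0.17 in Pyr P12 and 7.89 ± 0.10 in Pyr P0. By that probe set Vipr1 was higher at P12 than at P0 in Pyr by 2.30 (limma, adjusted p = 6.12e-11) and lower in IN P10 relative to Pyr P12 (-2.77, adjusted p = 1.84e-11). Adcyap1, the PACAP precursor, was also lower in IN P10 relative to Pyr P12 (-3.30, adjusted p = 3.1e-12).

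Somatostatin receptors, all of them inhibitory, fell into 3 patterns. Sstr4 was higher with age in both populations by nearly the same amount. It showed 11.70, 11.53 and 11.43 in IN P10, against 9.45, 9.37 and 8.995 in IN P0, and 11.55, 11.35 and 11.35 in Pyr P12, against 8.80, 9.11 and 9.20 in Pyr P0. The changes were 2.28 in IN (SE 0.12, adjusted p = 5.06e-09) and 2.38 in Pyr (SE 0.12, adjusted p = 2.05e-09), and their difference was -0.10 with a 95% interval of -0.48 to 0.29. No population difference was called for it at either age.

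Sstr2 was higher in the pyramidal cells than in the interneurons at both ages. Interneurons had 8.77, 8.81 and 8.95 at P10, against 8.26, 8.75 and 8.16 at P0, and pyramidal cells 11.21, 11.11 and 11.20 at P12, against 10.47, 10.26 and 10.22 at P0. The difference between IN and Pyr was -2.33 at the older age (SE 0.12, adjusted p = 3.8e-09) and -1.93 at P0 (SE 0.12, adjusted p = 4.41e-08). The difference of Pyr P12 from Pyr P0, 0.86, was under 2-fold.

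Sstr1 and Sstr3 were higher with age in pyramidal cells. Sstr1 read 11.14, 11.20 and 11.07 in Pyr P12, against 9.69, 9.75 and 9.41 in Pyr P0, and 11.01, 11.10 and 11.08 in IN P10, against 10.66, 10.64 and 10.41 in IN P0. The Pyr P0 arrays were the lowest and the older groups overlapped, with changes of 1.52 in Pyr (SE 0.09, adjusted p = 6.32e-09) and 0.49 in IN. Sstr3 read 8.92, 9.27 and 9.03 in Pyr P12, against 7.79, 7.87 and 8.06 in Pyr P0, and 7.91, 7.74 and 7.79 in IN P10, against 7.60, 7.80 and 7.70 in IN P0. Pyr P12 stood apart from the other 3 groups, by 1.17 over Pyr P0 (SE 0.09, adjusted p = 1.31e-07), and IN P10 was lower than Pyr P12 (-1.27, SE 0.09, adjusted p = 1.03e-07). The gene for the peptide, Sst, was 5.52 higher in IN P10 relative to Pyr P12 (adjusted p = 5.98e-12) and 3.24 higher in IN P0 relative to Pyr P0 (adjusted p = 1.78e-09).

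Npy1r, the Y1 receptor of neuropeptide Y, was higher in the pyramidal cells than in the interneurons at both ages. Its values were 6.85, 6.78 and 6.94 in IN P10, with no array above background, and 9.56, 9.84 and 9.69 in Pyr P12, which makes it at least 5.49-fold lower in IN P10 (fitted log2 fold change -2.84, SE 0.11, adjusted p = 1.62e-10). At P0 it had 7.36, 7.53 and 7.01 in IN, with 2 arrays above background, against 9.54, 9.53 and 9.50 in Pyr, a difference of -2.23 (SE 0.11, adjusted p = 3.22e-09). Within Pyr the groups did not overlap, and the change was 0.17. Npy2r was above background on no array and Npy5r on 1 array of Pyr P12. The ligand's gene, Npy, averaged 13.01 ± 0.17 in IN P10, 12.30 ± 0.26 in IN P0, 9.12 ± 0.15 in Pyr P12 and 13.13 ± 0.08 in Pyr P0, and was lower at P12 than at P0 in Pyr (-4.02, adjusted p = 9.97e-12), while its Y1 receptor was not called there.

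Among dopamine receptors, Drd2 separated the older interneurons from every other group. This Gi/o-coupled receptor had 9.35, 9.37 and 9.28 in IN P10, against 8.16, 8.06 and 7.87 in IN P0, a change of 1.30 (SE 0.08, adjusted p = 1.16e-08). In pyramidal cells it had 7.69, 7.86 and 7.61 at P12, against 7.86, 7.92 and 7.89 at P0, with overlapping values. The difference of IN P10 from Pyr P12 was 1.61 (SE 0.08, adjusted p = 1.55e-09), and at P0 it was 0.14 and not called.

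Drd1, coupled to Gs, differed between the populations at P0 and was not called at the older age. It had 9.46, 9.44 and 9.52 in IN P10, against 8.44, 8.53 and 8.46 in IN P0, and 9.65, 9.55 and 9.71 in Pyr P12, against 9.60, 9.68 and 9.70 in Pyr P0. IN P0 was lower than Pyr P0 (-1.18, SE 0.06, adjusted p = 2.32e-09), and at the older age the difference was -0.16. The change in IN, 1.001 (SE 0.06, adjusted p = 5.85e-09), lay at the threshold of 2-fold, and its call was lost with each array centered on its median (0.97) or without IN P0 replicate A or C or IN P10 replicate C (0.98, 0.99 and 0.98). Drd4, with group means of 8.18 to 8.45, and Drd5, above background at the older ages alone, were not called.

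Serotonin receptors were the largest family, and 7 of 9 were called in at least 1 comparison, as were 22 of all 33 receptors. The share of all probe sets called in at least 1 comparison was not counted. Htr1b, a Gi/o-coupled receptor known from axon terminals, had the family's largest change in interneurons, with 11.01, 10.81 and 10.74 in IN P10, against 9.18, 8.98 and 8.60 in IN P0. Pyramidal cells had 9.13, 9.63 and 9.74 at P12, against 8.26, 8.29 and 8.71 at P0. The change was 1.94 in IN (SE 0.17, adjusted p = 5.5e-07) and 1.08 in Pyr (SE 0.17, adjusted p = 0.000127), and the call in Pyr was lost without Pyr P12 replicate C (0.96) or Pyr P0 replicate A (0.997). IN P10 exceeded Pyr P12 by 1.36 (SE 0.17, adjusted p = 2.47e-05). Htr1d, its close relative, was above background only in IN P10, where it had 8.04, 8.15 and 8.41, against 6.78, 6.81 and 6.87 in IN P0. It read 6.96, 6.95 and 6.85 in Pyr P12, against 6.67, 6.75 and 6.84 in Pyr P0. In IN P10 the receptor was at least 1.95-fold above IN P0 (fitted log2 fold change 1.38, SE 0.08, adjusted p = 1.22e-08). It was at least 1.77-fold above Pyr P12 (fitted log2 fold change 1.28, SE 0.08, adjusted p = 2.9e-08). Both bounds lie under 2-fold, and neither call held with values below background raised to it (0.96 and 0.825).

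Htr1a and Htr1f, also Gi/o-coupled, differed between the populations at birth and in opposite directions. Htr1a had 8.88, 8.70 and 8.70 in IN P0, against 7.47, 7.58 and 7.46 in Pyr P0, and was the 1 receptor called higher in IN P0 (1.26, SE 0.07, adjusted p = 6.74e-09). At the older age it had 9.11, 9.07 and 9.08 in IN P10, against 8.28, 8.36 and 8.18 in Pyr P12, a difference of 0.82 that was under 2-fold. Htr1f had 7.68, 7.87 and 7.57 in IN P0, against 9.10, 9.39 and 9.38 in Pyr P0 (-1.58, SE 0.09, adjusted p = 1.89e-08). The older groups were closer, with 8.50, 8.57 and 8.60 in IN P10, against 9.18, 9.38 and 9.17 in Pyr P12.

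Htr5a and Htr7 were higher with age in both populations. Htr5a, coupled to Gi/o, had 8.85, 8.77 and 9.09 in IN P10, against 7.64, 7.85 and 7.46 in IN P0, and 10.13, 10.10 and 9.80 in Pyr P12, against 8.11, 7.92 and 7.9999 in Pyr P0. The changes were 1.25 (SE 0.11, adjusted p = 5.84e-07) and 1.996 (SE 0.11, adjusted p = 4.33e-09), and IN P10 was lower than Pyr P12 (-1.11, SE 0.11, adjusted p = 2.79e-06). For Htr7, coupled to Gs, the older arrays of the populations overlapped, with 8.55, 8.43 and 8.36 in IN P10, against 7.31, 7.22 and 7.36 in IN P0, and 8.60, 8.49 and 8.50 in Pyr P12, against 7.03, 6.95 and 7.31 in Pyr P0. It was higher by 1.15 in IN (SE 0.08, adjusted p = 7.3e-08) and at least 2.46-fold in Pyr, where no P0 array was above background (fitted log2 fold change 1.43, SE 0.08, adjusted p = 5.94e-09).

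Htr2a, the Gq/11-coupled 5-HT2A receptor, was higher with age in pyramidal cells. It had 11.65, 11.62 and 11.59 in Pyr P12, against 9.85, 9.67 and 9.91 in Pyr P0 (1.81, SE 0.10, adjusted p = 2.12e-09). Interneurons had 11.47, 11.44 and 11.45 at P10, against 10.86, 10.70 and 10.40 at P0, a change of 0.80 that was under 2-fold. Htr2c was above background in both older groups and in neither P0 group, with changes of 0.93 in IN and 0.87 in Pyr that were not called. Htr4 was above background on all arrays, changed by 0.59 in IN and 0.11 in Pyr, and was not called.

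Of the adrenergic receptors, Adra1b and Adra2c were measured and neither was called. Adra1b, coupled to Gq/11, averaged 9.01 ± 0.07 in IN P10, 8.51 ± 0.01 in IN P0, 8.88 ± 0.07 in Pyr P12 and 8.39 ± 0.12 in Pyr P0. The changes with age, 0.51 and 0.49, differed by 0.01 with a 95% interval of -0.19 to 0.21. Adra2c, coupled to Gi/o, spanned 7.27 to 8.52 over the arrays.

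Cnr1, which encodes the CB1 receptor through which endocannabinoids restrain release, was the member that changed downward in pyramidal cells. It had 9.28, 9.27 and 9.13 in Pyr P12, against 11.61, 11.54 and 11.55 in Pyr P0, and fell by 2.34 (SE 0.07, adjusted p = 6.9e-12). In interneurons it had 10.24, 10.32 and 10.42 at P10, against 10.74, 10.71 and 10.55 at P0, a fitted difference of -0.34 that was under 2-fold. At the older age IN was above Pyr by 1.10 (SE 0.07, adjusted p = 1.63e-08), and at P0 the difference was -0.90, which missed the fold threshold. The difference between the changes was 1.9999 (SE 0.09, adjusted p = 6.93e-09). Of 6 enzymes that make or break down endocannabinoids in the ligand list, Dagla (1.49), Napepld (1.49), Mgll (2.04), Faah (1.56) and Abhd6 (1.89) were higher at P12 than at P0 in Pyr, and Daglb (0.53) was under 2-fold. These 6 were grouped after their values were seen. In the Pyr arrays the mean of the 7 pan-interneuron markers was also lower, at 7.68 to 7.81 at P12 against 8.73 to 9.21 at P0. At P0 Cnr1 read higher on every array of Pyr than on any array of IN. The part of interneuron RNA in the fall of Cnr1 was not tested.

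Hrh3, the Gi/o-coupled H3 receptor, was higher with age in Pyr and came close to a call in IN. It had 11.11, 10.95 and 11.06 in Pyr P12, against 9.09, 9.12 and 9.18 in Pyr P0 (1.92, SE 0.06, adjusted p = 3.18e-11), and 9.36, 9.56 and 9.54 in IN P10, against 8.49, 8.58 and 8.48 in IN P0 (0.97, just under 2-fold). The difference between the changes, -0.94, was also just under 2-fold, and IN P10 was lower than Pyr P12 (-1.56, SE 0.06, adjusted p = 3.62e-10).

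Between the populations, 15 receptors differed at the older age and 6 at P0. In IN P10 against Pyr P12, 6 of 33 were higher (18.2%, background 2.65%) and 9 were lower (27.3%, background 2.91%). In IN P0 against Pyr P0, 1 was higher (3.03%, background 1.9%) and 5 were lower (15.2%, background 1.74%). The median log2 fold change of the 33 was -0.13 at the older age and 0.03 at P0. Sstr2, Npy1r and Crhr1 were called at both ages, each lower in IN, whereas 12 receptors were called at the older age alone and Htr1a, Htr1f and Drd1 at P0 alone. Of the 3 IN P10 arrays, replicate A had the highest mean of the oligodendrocyte precursor genes. Among the 6 receptors called higher in IN P10, it had the lowest Oprd1, Tacr1, Htr1d and Cnr1, the middle Drd2 and the highest Htr1b. Of the 3 IN P0 arrays, replicate B, which had the highest mean of the pyramidal genes, had the highest value for 4 of the 5 receptors called lower in IN P0, Sstr2, Npy1r, Htr1f and Drd1. All 5 calls held without it, but for those 4, dropping the highest IN P0 value can only widen the difference. The part of oligodendrocyte precursor or pyramidal RNA in the differences between IN and Pyr was not tested. The part of the area dissected, which differed at both ages, was not tested either.

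**Figure D4:**
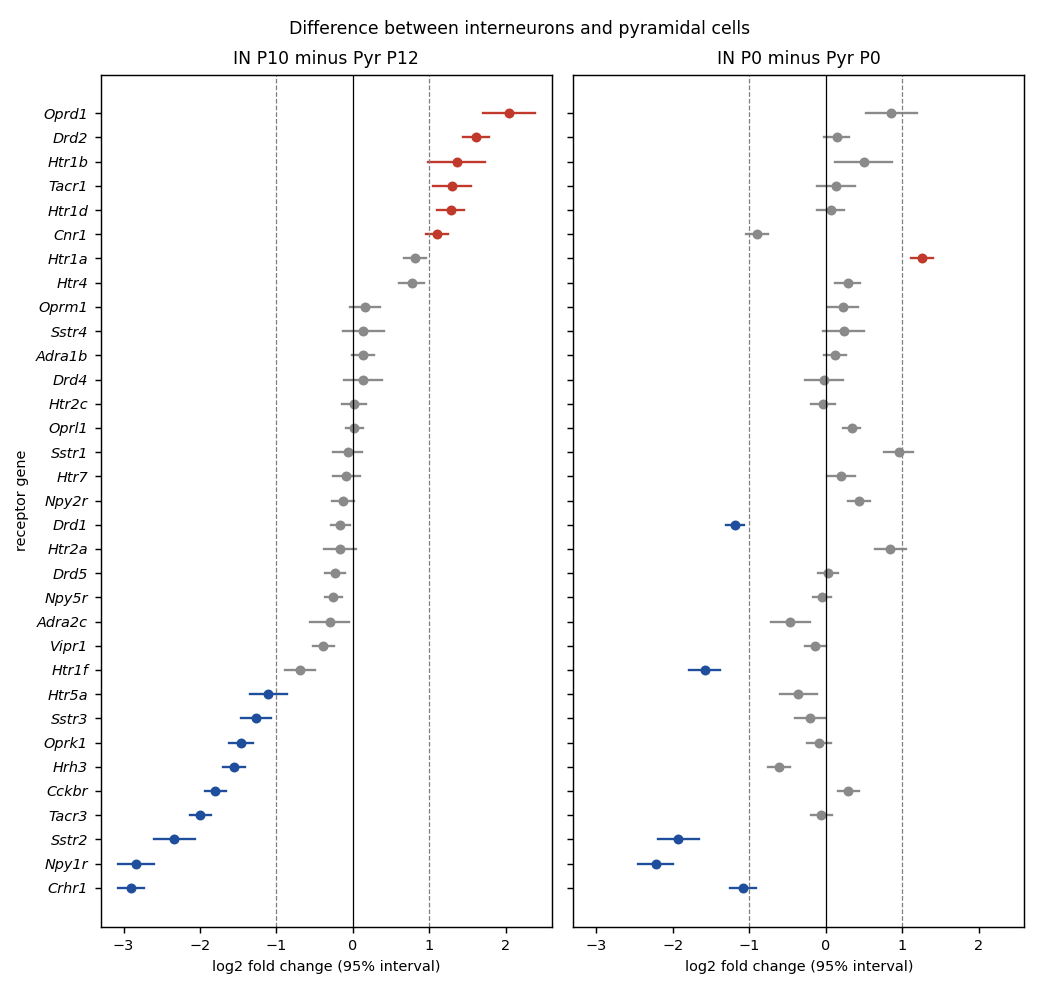
Log2 fold change of IN P10 against Pyr P12 (left) and of IN P0 against Pyr P0 (right) for the 33 receptors, in the order of the left panel, with 95% intervals from limma, dashed lines at 2-fold, and called genes in red (higher in IN) or blue (lower in IN). The left panel runs from -2.90 for Crhr1 to 2.04 for Oprd1, and in the right panel Htr1a alone is called higher.

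By coupling, calls were spread over all 3 classes. Of 21 Gi/o receptors, 6 were higher with age in IN and 7 in Pyr, and of 6 Gq/11 receptors 2 and 3 were. Of 6 Gs receptors, 2 were higher with age in each population. These are shares of 28.6% to 33.3% in IN and 33.3% to 50% in Pyr, beside 4.19% and 5.68% over all tested probe sets. The median change of the Gq/11 group was 0.86 in IN and 1.34 in Pyr and that of the Gi/o group 0.46 and 0.44, on the log2 scale, beside 0.00 and 0.06 over all tested probe sets.

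Another 44 measured neuromodulator receptors, from a list of 52, were counted by the same rule. Of these, 3 were higher (6.82%, background 4.19%) and 2 lower (4.55%, background 2.85%) at P10 than at P0 in IN, shares near those of all probe sets, and 7 were higher (15.9%, background 5.68%) and 3 lower (6.82%, background 3.48%) at P12 than at P0 in Pyr. The 7 include Trhr, which was above background on no array. In IN, the higher ones were Nmbr, a receptor for neuromedin B (at least 4.03-fold, adjusted p = 9.43e-10), Rxfp1, the relaxin receptor (1.84), and Oxtr, the oxytocin receptor (1.55), and the lower ones were the neurotensin receptor Ntsr1 (-1.20) and the endothelin receptor Ednrb (-1.04). In Pyr, Rxfp1 (2.08), Drd3 (at least 2.95-fold) and Mchr1 (1.56) led the higher ones, and the prokineticin receptor Prokr2 (-2.57), Ntsr1 (-1.998) and the melanocortin receptor Mc4r (-1.27) were lower. Between the populations, 4 were higher (9.09%, background 2.65%) and 3 lower (6.82%, background 2.91%) in IN P10 relative to Pyr P12. These 3 also include Trhr. In IN P0 relative to Pyr P0, 3 were higher (6.82%, background 1.9%) and 2 lower (4.55%, background 1.74%).

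Among components downstream of the receptors, calls with age were mostly higher at the older age. Of 70 measured genes for G protein subunits, adenylyl cyclases, phospholipases, channels, kinases, phosphodiesterases and regulators of G protein signaling, 12 were higher (17.1%, background 4.19%) at P10 than at P0 in IN, and 21 were higher (30%, background 5.68%) and 3 lower (4.29%, background 3.48%) at P12 than at P0 in Pyr. Rgs4, which shortens Gi/o and Gq/11 signals, was the most changed in both, by 2.84 in IN (adjusted p = 7.02e-09) and 3.39 in Pyr (adjusted p = 7.89e-10). It was followed by Rgs11 (2.28) and Pde1a (2.04) in IN, and by Pde7b (2.83) and the potassium channel gene Kcnj9 (2.74) in Pyr. Lower in Pyr P12 were Rgs16 (-1.12), Gpsm1 (-1.04) and Rgs9 (-1.04). In IN P10 against Pyr P12, 3 were higher (4.29%, background 2.65%), namely Grk3 (1.49), Gng7 (1.31) and Rgs9 (1.30). In that comparison 8 were lower (11.4%, background 2.91%), led by Pde7b (-2.44), Kcnj9 (-1.85) and Rgs4 (-1.79).

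Genes that make or clear the ligands were mostly called on the interneuron side. Of 44 measured, 15 were higher (34.1%, background 4.19%) at P10 than at P0 in IN, led by Tac1 (4.17), Crhbp (3.39) and Th, which encodes tyrosine hydroxylase (3.02). In Pyr P12 against Pyr P0, 8 were higher (18.2%, background 5.68%) and 3 lower (6.82%, background 3.48%). In IN P10 against Pyr P12, 14 were higher (31.8%, background 2.65%) and 2 (4.55%, background 2.91%), Adcyap1 (-3.30) and Cck (-1.28), were lower.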

How the data were processed

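GFP+ cells sorted from mouse cortex were hybridized to Affymetrix mouse gene arrays, 12 in 4 groups of 3. The authors corrected background, quantile-normalized and summarized the scans with RMA, and the deposited values are log2 signals of 28192 probe sets, with 0 missing. Software versions of that step are not given in the sources used here. Quantile normalization fixes each array's overall distribution, so changes are relative to all genes.

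The 22961 probe sets with a gene symbol in the platform annotation were fitted with limma 3.58.1 in R 4.3.3, all 12 arrays together (8 residual degrees of freedom), and adjusted by Benjamini-Hochberg within each of 5 contrasts. Where several probe sets named the same gene alone, the brightest on average stood for it. A group with no array above background is given as a bound against that level, "at least N-fold". The fit was tested on simulated data. Values on every array are printed for the 22 receptors called in any contrast, and of other lists up to 3 of the most changed in each direction are named for some comparisons. Ligand genes named beside a receptor, such as Tac2, Crh, Sst and Npy, were picked outside that rule. The receptors and the lists were chosen with earlier results of these data known. Depth is not defined for arrays, and 3 arrays per group limit the precision: an exact 2-sided permutation test of 3 against 3 cannot go below p = 0.1. Alternatives were SAM, the 2 groups alone, a trended robust spread, a block for the replicate letters, dropping dim probe sets, median centering, a second quantile normalization, another probe set per gene, other thresholds, leaving out each array and, added after the values were seen, raising values below background to it.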

Additional observations from a re-analysis of the deposited data

Results flagged for a closer look

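For 13 of the 33 receptors the change with age differed between the populations by the test of the difference itself (limma, change in IN minus change in Pyr, adjusted p under 0.05 and a difference over 2-fold). The interval was longer in Pyr, which was sampled at P12 where IN was sampled at P10, and its part cannot be told apart from that of the population. The difference was positive for Cnr1 (1.9999), Drd2 (1.47), Htr1d (1.21), Oprd1 (1.18), Tacr1 (1.17) and Drd1 (1.02). That of Cnr1 came from a lower value at P12 than at P0 in Pyr, and those of the other 5 from a higher value at P10 than at P0 in IN. The difference was negative for Cckbr (-2.10), Tacr3 (-1.94), Crhr1 (-1.82), Oprk1 (-1.38), Sstr3 (-1.06), Sstr1 (-1.02) and Htr2a (-1.01), each with a higher value at P12 than at P0 in Pyr. Htr1d and Oprk1 had no array above background in 3 of the 4 groups. With values below background raised to it, the difference was 0.82 for Htr1d, under 2-fold, and -1.18 for Oprk1. Groups of 3 arrays were not tested for arrays that stand apart.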

How the results depend on the processing

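None of the 165 fold changes, 33 receptors in 5 comparisons, turned its sign when called. Of 57 called values, 10 lost their call under at least 1 alternative, namely Crhr1 in IN P0 against Pyr P0, Drd1 in IN with age, Htr1b in Pyr with age, and the differences between the changes of Drd1, Htr2a, Sstr1 and Sstr3, all near 2-fold, and, with values below background raised to it (added after seeing the data), Htr1d in IN with age, in IN P10 against Pyr P12 and in the difference between the changes. A call was gained by Hrh3 and Htr2c in IN with age and by Sstr1 in IN P0 against Pyr P0, and by Vipr1, with its other probe set, in Pyr with age (2.30), in IN P10 against Pyr P12 (-2.77) and in the difference between the changes (-2.36). SAM called the same receptors. With a second quantile normalization, 4 receptors instead of 7 had a smaller change in IN than in Pyr, counted with its sign. With the adjusted p alone, 24 receptors were higher and 3 lower in IN with age, and 24 were higher in Pyr with age. By that rule 14 were lower in IN P10 relative to Pyr P12, 8 were higher and 9 lower in IN P0 relative to Pyr P0, and 15 had a smaller change in IN. These counts thus depend on the fold threshold. Over all 22961 probe sets, that rule gave 5131 higher and 5311 lower in IN with age, and 7570 higher in Pyr with age. It gave 6986 lower in IN P10 relative to Pyr P12, and 2546 higher and 2597 lower in IN P0 relative to Pyr P0. A smaller change in IN was found for 4664. Leaving out 1 array gave 1 to 2 receptors higher in IN P0 relative to Pyr P0, Sstr1 being added without IN P0 replicate C or Pyr P0 replicate B. The filter on dim probe sets left 16308, without Npy2r and Npy5r. A replicate block on the letters changed no call. The deviations of same-letter arrays from their group means had r from -0.18 to 0.19 between groups, and those of different letters from -0.26 to 0.30. For letter A, r was positive in every pair of groups (0.06 to 0.16). Letter C of IN P0 and Pyr P0 had 0.19, against -0.17 to -0.10 with other letters. As the values were weak and mixed, the letters were not read as pairs. SAM and the fit of 2 groups alone were not run for the difference between the changes.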
